A study of Saccharomyces cerevisiae with 8 samples.

Results

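The genes described here encode the enzymes of amino acid synthesis in Saccharomyces cerevisiae outside the arginine and sulfur pathways, together with their shared activator GCN4. The 52 genes were taken by name: 7 of histidine, 11 of branched-chain, 7 of lysine, 12 of aromatic, 5 of threonine, 4 of serine, 2 of asparagine and 3 of proline synthesis, and GCN4. A single probe set is annotated to each of 51 of them, and TRP1 is not analysed here. All 51 exceeded background on at least 2 arrays and were tested, among 3879 tested genes of 5449 S. cerevisiae genes on the array. Of the 51, 46 exceeded background on all 8 arrays, and none is measured by a probe set of the kind marked as shared between related transcripts.

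RNA came from strain NFRI 3145, labelled tolerant of acetic acid, and from strain NBRC 0224, labelled sensitive. Each strain was sampled at 30 °C, after 30 min with 0.6% acetic acid (0.6% AcOH) or without acetic acid (0% AcOH), with 2 Affymetrix Yeast Genome 2.0 arrays in each of the 4 groups. Genotype, ploidy, growth medium and the origin of the replicates are not given in the sources used here, so that p-values measure only the spread between these arrays, which may be technical. Per the series description, a gene related to tolerance was chosen from this comparison. A time is given for the acid samples only, so time and acid cannot be told apart.

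Yeast makes every one of these amino acids itself. When cells lack an amino acid, the kinase Gcn2 phosphorylates the initiation factor eIF2, translation of GCN4 mRNA rises, and the Gcn4 protein activates genes of most of the pathways at once, the response called general amino acid control. Single pathways have controls of their own: Lys14 answers to a lysine pathway intermediate, Leu3 to a leucine pathway intermediate, and Aro80 to aromatic amino acids. GCN4 is regulated mainly in translation, so its transcript level is not a measure of its activity.

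Values are linear signals in intensity units, scaled by the authors to a common trimmed mean, and background lay between 31.5 and 43.9 units. Signals of different genes come from different probe sets and are not compared with each other. Changes are on the log2 scale with the standard error (SE) of a limma fit over all 8 arrays (2 per group), and a gene was called at a Benjamini-Hochberg adjusted p under 0.05 over all 3879 genes. Between 70.4% and 91.3% of tested genes exceeded background on an array. The lowest shares were on NFRI 3145 arrays at 0.6% AcOH. The ratio of 3′ to 5′ control probe sets for RIP1 was 3.58 to 4.81 in NFRI 3145, against 1.71 to 2.01 in NBRC 0224, and that for WBP1 8.86 to 9.92, against 3.36 to 4.39. For TDH1 the ratio was 20.1 to 26.5 in NFRI 3145 at 0.6% AcOH and 7.68 to 8.14 at 0% AcOH, against 2.65 to 5.11 and 1.59 to 2.07 in NBRC 0224. For SPT15, whose 5′ probe set read below background on an array of every group, the order of the strains was opposite, with 1.9 to 3.55 in NFRI 3145, against 3.87 to 7.32 in NBRC 0224. For ACT1 the ratio was 0.926 to 1.02 on all arrays. The ratios of the other controls overlapped between the strains. URA3 gave 0.613 to 0.836 in NFRI 3145 and 0.506 to 1.28 in NBRC 0224. EAF5 gave 0.182 to 0.904 and 0.769 to 9.58, and SRB4 1.13 to 10.9 and 2.41 to 7.28. The 5′ probe sets of EAF5 and SRB4 read below background on an array of every group. The ratios of RIP1, WBP1 and TDH1 move with the strain, and that of TDH1 also with acid within each strain. Their part in the strain differences and in the responses to acid was not tested. Where an array of the dimmer group was below background, a bound is given in place of a fold: the mean of the brighter group over that of the dimmer one with each array raised to its background at least. The alternatives named beside a call are quantile normalization or median centring of the arrays, no filter on low signals, raising signals to background (raised signals), limma without its intensity trend (no trend), a fit of only the 4 arrays compared, and leaving out each array in turn. The probes were designed on the reference strain, and how well they match NFRI 3145 and NBRC 0224 was not tested.

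More members were called between the strains than between acid levels in either strain. The same held for all tested genes, with 50.2% and 46.1% called between the strains at 0% and 0.6% AcOH. With acid, 13.5% of them were called in NFRI 3145 and 8.4% in NBRC 0224. Without acetic acid, 5 of 7 genes of lysine, 3 of 4 of serine and 4 of 5 of threonine synthesis were called lower in the tolerant NFRI 3145 than in NBRC 0224. Branched-chain synthesis was mixed, with 5 of 11 genes called lower and 4 higher, and a median log2 strain difference of 0.21. The saccharopine dehydrogenase gene LYS9 was 31.7-fold lower. Of the 51 members, 25 (49.0%) were called lower and 7 (13.7%) higher in NFRI 3145 at 0% AcOH, where 29.1% of all tested genes were called lower and 21.1% higher (50.2% in either direction). At 0.6% AcOH, 23 (45.1%) were lower and 8 (15.7%) higher, where 28.7% and 17.4% of all tested genes were (46.1% in either direction). SER3 and PRO1 passed the filter on arrays of NBRC 0224 alone. Both are counted among the lower members at 0% AcOH, and SER3 also at 0.6% AcOH. Among genes above background on all 8 arrays, which leave both out, 25 of 46 members (54.3%) were lower at 0% AcOH, where 33.3% of such genes were.

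The median log2 strain difference of the members was −0.70 at 0% AcOH and −0.40 at 0.6% AcOH, where that of all tested genes was −0.06 and −0.23. Centring the arrays on the median gene moved the median of all tested genes to 0.35 and 0.26. Relative to all tested genes, the members' median was −0.64 at 0% AcOH in both scalings and −0.62 after quantile normalization. At 0.6% AcOH it was −0.17, −0.17 and −0.31 in the deposited, centred and quantile scalings, and −0.07 and −0.08 without replicates 1 and 2 of NBRC 0224 at 0.6% AcOH. The split of called members depended on the scaling. With centring it was 10 higher and 21 lower at 0% AcOH, where 34.7% and 21.7% of all tested genes were, and 21 higher and 15 lower at 0.6% AcOH, where 29.9% and 17.8% were. With quantile normalization it was 6 higher and 23 lower at 0% AcOH (25.0% and 26.1% of all tested genes), and 12 higher and 21 lower at 0.6% AcOH (21.5% and 23.4%). The 7 higher calls at 0% AcOH became 3 and 2 without replicates 1 and 2 of NBRC 0224 at 0% AcOH, and 3 without either array of NFRI 3145 at 0% AcOH, where 14.6% to 16.1% of all tested genes were called higher. The 8 at 0.6% AcOH became 5 and 4 without replicates 1 and 2 of NFRI 3145 at 0.6% AcOH, where 12.5% and 11.7% of all tested genes were.

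The strain differences at the 2 acid levels come from separate arrays. Of the 25 members lower in NFRI 3145 at 0% AcOH, 22 (88.0%) were also called lower at 0.6% AcOH, where they made up 95.7% of the 23. Over all tested genes, the genes called lower at both acid levels were 76.4% of those at 0% AcOH and 77.5% of those at 0.6% AcOH. Of the 7 higher members, 4 (57.1%) were called higher at 0.6% AcOH as well (50.0% of the 8), where 62.8% and 76.0% of all tested genes called higher were shared. The difference between the members and all tested genes in these shares was not tested. The 4 were HIS3, LEU2, ILV3 and ARO1. In all 8 fits without 1 array, 21 of the 25 and 2 of the 7 stayed called at 0% AcOH, and 18 of the 23 and 3 of the 8 at 0.6% AcOH.

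**Figure D1:**
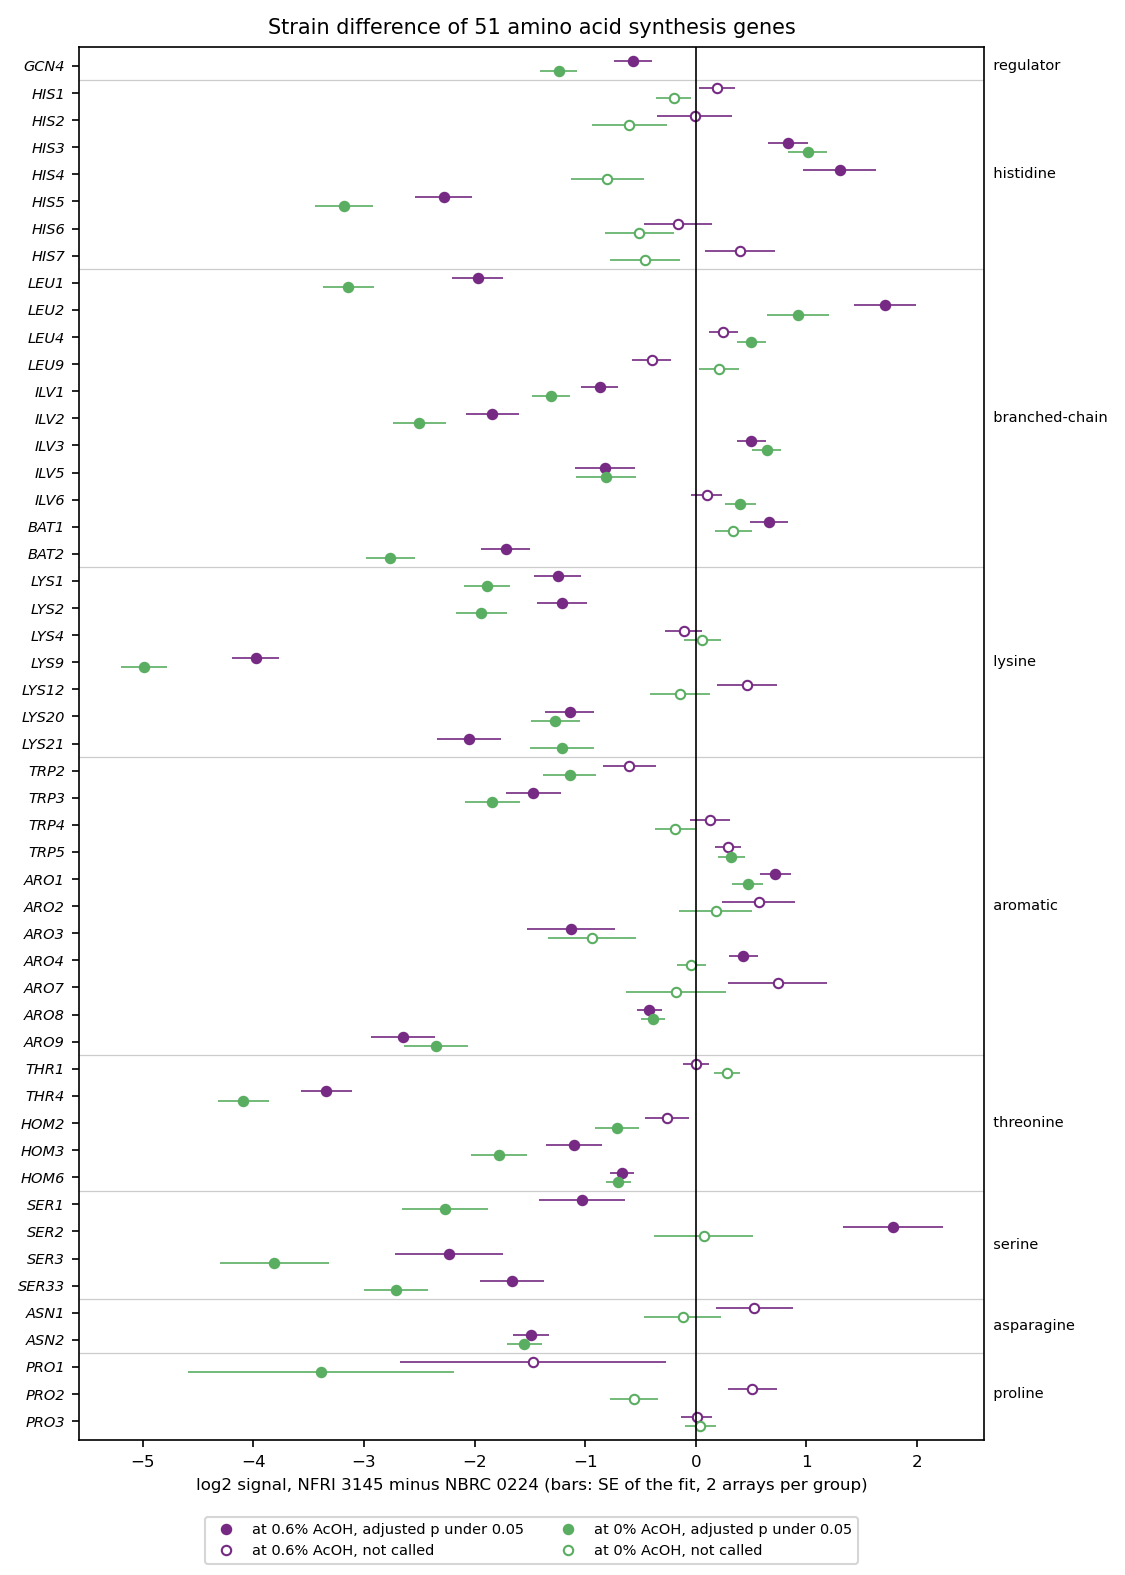
Log2 strain difference (NFRI 3145 minus NBRC 0224, horizontal axis) of the 51 members by pathway, at 0.6% AcOH (purple) and at 0% AcOH (green); bars are the SE of the fit, filled points are called at an adjusted p under 0.05 and open points are not. Most called points lie left of 0, with LYS9 the farthest at −4.99 at 0% AcOH, and the differences at 0.6% AcOH lie nearer to 0 for most of the genes that were lower.

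Without acid, the activator gene GCN4 was lower in NFRI 3145. It read 3944 and 4420 at 0.6% AcOH and 4517 and 3969 at 0% AcOH in NFRI 3145, against 7319 and 5246 at 0.6% AcOH and 10286 and 9747 at 0% AcOH in NBRC 0224. The 4 arrays of NFRI 3145 lie close together and below all 4 of NBRC 0224, whose acid arrays are the lower of that strain. The strain difference was −1.24 ± 0.17 at 0% AcOH (adjusted p = 1.3e-04) and −0.57 ± 0.17 at 0.6% AcOH (adjusted p = 0.02). The second call ended without replicate 1 of NBRC 0224 at 0.6% AcOH or either array of NFRI 3145 at 0.6% AcOH (adjusted p of 0.052 to 0.13) and with median centring, no trend or only the 4 arrays compared. The value was −0.33 without replicate 1 of NBRC 0224 at 0.6% AcOH. With acid, the fitted change of GCN4 in NFRI 3145 was −0.02 ± 0.17, and GCN4 fell in NBRC 0224 (−0.69 ± 0.17, adjusted p = 0.034). The call in NBRC 0224 ended without any array other than replicate 1 of NBRC 0224 at 0.6% AcOH (adjusted p of 0.052 to 0.24) and with median centring, no trend or only the 4 arrays compared. The value was −0.45 without replicate 2 of NBRC 0224 at 0.6% AcOH. The difference of the 2 responses was not called (0.67 ± 0.25, adjusted p = 0.21).

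In histidine synthesis, 1 of 7 genes was lower and 1 higher in NFRI 3145 at 0% AcOH, and 1 was lower and 2 higher at 0.6% AcOH. These are 28.6% and 42.9% of the genes, where 50.2% and 46.1% of all tested genes were called. HIS5, the histidinol-phosphate aminotransferase gene, read 171 and 144 at 0.6% AcOH and 167 and 118 at 0% AcOH in NFRI 3145, against 638 and 915 at 0.6% AcOH and 1263 and 1278 at 0% AcOH in NBRC 0224. Its arrays separate the strains at both acid levels, with strain differences of −3.18 ± 0.26 (adjusted p = 2.4e-06) and −2.28 ± 0.26 (adjusted p = 3.6e-05). HIS3, the dehydratase gene of the pathway, read 9048 and 8638 at 0.6% AcOH and 13418 and 14478 at 0% AcOH in NFRI 3145, against 4357 and 5662 at 0.6% AcOH and 5922 and 8100 at 0% AcOH in NBRC 0224. It was 2.01-fold higher in NFRI 3145 at 0% AcOH (1.01 ± 0.18, adjusted p = 5.8e-04) and 1.78-fold at 0.6% AcOH (0.83 ± 0.18, adjusted p = 0.0025). HIS3 fell with acid in NFRI 3145 (−0.66 ± 0.18, adjusted p = 0.031), a call that ended without either array of NFRI 3145 at 0% AcOH or either array of NFRI 3145 at 0.6% AcOH (adjusted p of 0.094 to 0.19) and with median centring or no trend, and its value in NBRC 0224 was −0.48 ± 0.18.

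HIS4 encodes a protein with several of the pathway's activities and read 1892 and 2720 at 0.6% AcOH and 1064 and 1062 at 0% AcOH in NFRI 3145, against 1377 and 620 at 0.6% AcOH and 2112 and 1623 at 0% AcOH in NBRC 0224. Both acid arrays of NFRI 3145 lie above both without acid, and both acid arrays of NBRC 0224 lie below. The rise in NFRI 3145 was 1.09 ± 0.33 (adjusted p = 0.049), a call that ended without any array other than the arrays of NBRC 0224 at 0.6% AcOH (adjusted p of 0.086 to 0.29) and with quantile normalization, no filter or no trend. The value in NBRC 0224 was −1.0 ± 0.33 (adjusted p = 0.09), not called, and lay between −1.58 and −0.43 when 1 array was left out. The difference of the responses was 2.10 ± 0.46 (adjusted p = 0.065), the largest in size among the members. It was called under median centring, with signals raised to background and among genes above background on all 8 arrays (adjusted p of 0.034, 0.016 and 0.031). At 0.6% AcOH HIS4 was higher in NFRI 3145 by 1.30 ± 0.33 (adjusted p = 0.0074). That value was 0.72 without replicate 2 of NBRC 0224 at 0.6% AcOH, and the call ended without replicate 2 of NFRI 3145 at 0.6% AcOH (adjusted p = 0.078). HIS1, HIS2, HIS6 and HIS7, which encode the phosphoribosyltransferase of the entry step, the phosphatase, the isomerase and the glutamine amidotransferase of the pathway, were not called in any comparison. HIS7 lies beside ARO4 in the reference genome, and the fitted strain differences were −0.46 for HIS7 and −0.04 for ARO4 at 0% AcOH, and 0.40 and 0.43 at 0.6% AcOH.

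In branched-chain synthesis, 5 of 11 genes were lower and 4 higher in NFRI 3145 at 0% AcOH, with lower and higher genes following each other along the same pathway. Together they are 81.8% of the genes, where 50.2% of all tested genes were called. ILV1, the threonine deaminase that opens isoleucine synthesis, read 4720 and 5090 at 0.6% AcOH and 5903 and 4967 at 0% AcOH in NFRI 3145, against 10499 and 7609 at 0.6% AcOH and 12867 and 13946 at 0% AcOH in NBRC 0224. ILV2, the catalytic subunit of acetolactate synthase, read 497 and 631 at 0.6% AcOH and 422 and 294 at 0% AcOH in NFRI 3145, against 2181 and 1832 at 0.6% AcOH and 1813 and 2201 at 0% AcOH in NBRC 0224. Both were lower on every array of NFRI 3145 than on any of NBRC 0224. The strain difference of ILV1 was −1.31 ± 0.17 and −0.87 ± 0.17 at 0% and 0.6% AcOH (adjusted p of 7.0e-05 and 0.0015), the second not called under median centring. For ILV2 it was −2.50 ± 0.24 and −1.84 ± 0.24 (adjusted p of 7.4e-06 and 9.0e-05). ILV6, the regulatory subunit of the same synthase, read 19140 and 17143 at 0.6% AcOH and 19552 and 18635 at 0% AcOH in NFRI 3145, against 14722 and 19500 at 0.6% AcOH and 14369 and 14580 at 0% AcOH in NBRC 0224. It was higher in NFRI 3145 at 0% AcOH by 0.40 ± 0.14 (adjusted p = 0.031), a call that ended without either array of NBRC 0224 at 0% AcOH or either array of NFRI 3145 at 0% AcOH (adjusted p of 0.091 to 0.14) and with quantile normalization, no filter or no trend.

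ILV5, the reductoisomerase gene, fell with acid in both strains. It read 1484 and 1936 at 0.6% AcOH and 3369 and 3601 at 0% AcOH in NFRI 3145, against 4083 and 2183 at 0.6% AcOH and 7014 and 5352 at 0% AcOH in NBRC 0224. Both acid arrays lie below both arrays without acid in each strain. The change was −1.04 ± 0.27 in NFRI 3145 and −1.04 ± 0.27 in NBRC 0224 (adjusted p of 0.027 and 0.039). The call in NFRI 3145 ended without any array other than the arrays of NBRC 0224 at 0.6% AcOH (adjusted p of 0.051 to 0.19) and with no trend. The call in NBRC 0224 ended without any array other than replicate 1 of NBRC 0224 at 0.6% AcOH (adjusted p of 0.056 to 0.29) and with no filter, no trend or only the 4 arrays compared. Its value was −0.59 without replicate 2 of NBRC 0224 at 0.6% AcOH. ILV5 was also lower in NFRI 3145 than in NBRC 0224, with strain differences of −0.81 ± 0.27 at 0% and −0.82 ± 0.27 at 0.6% AcOH (adjusted p of 0.025 and 0.027). The first of these calls ended without replicate 1 of NBRC 0224 at 0% AcOH or either array of NFRI 3145 at 0% AcOH (adjusted p of 0.075 to 0.19) and with median centring or no trend. The second ended without replicate 1 of NBRC 0224 at 0.6% AcOH or replicate 1 of NFRI 3145 at 0.6% AcOH (adjusted p of 0.18 to 0.19) and with median centring, no trend or only the 4 arrays compared, with values of −0.37 and −1.27 without replicates 1 and 2 of NBRC 0224 at 0.6% AcOH.

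ILV3, the dihydroxyacid dehydratase gene that acts after ILV5, was higher in NFRI 3145. It read 12791 and 12412 at 0.6% AcOH and 15189 and 15448 at 0% AcOH in NFRI 3145, against 8283 and 9598 at 0.6% AcOH and 9308 and 10348 at 0% AcOH in NBRC 0224. The strain difference was 0.64 ± 0.13 at 0% AcOH and 0.50 ± 0.13 at 0.6% AcOH (adjusted p of 0.0013 and 0.0069), and the second call ended without replicate 1 of NFRI 3145 at 0.6% AcOH (adjusted p = 0.056) and with no trend. The last step is shared by the mitochondrial and the cytosolic branched-chain aminotransferases BAT1 and BAT2, and only the gene of the cytosolic enzyme was lower in NFRI 3145 at 0% AcOH. BAT2 read 434 and 489 at 0.6% AcOH and 444 and 468 at 0% AcOH in NFRI 3145, against 1802 and 1271 at 0.6% AcOH and 3342 and 2869 at 0% AcOH in NBRC 0224. BAT1 read 4379 and 4362 at 0.6% AcOH and 3339 and 3829 at 0% AcOH in NFRI 3145, against 2981 and 2557 at 0.6% AcOH and 2604 and 3066 at 0% AcOH in NBRC 0224. BAT2 was 6.79-fold lower in NFRI 3145 at 0% AcOH (−2.76 ± 0.22, adjusted p = 1.9e-06) and 3.29-fold at 0.6% AcOH (−1.72 ± 0.22, adjusted p = 7.9e-05). BAT1 gave 0.34 ± 0.17 at 0% AcOH, not called, and 0.66 ± 0.17 at 0.6% AcOH (adjusted p = 0.0074), a call that ended without either array of NFRI 3145 at 0.6% AcOH (adjusted p of 0.051 to 0.055). The difference between the paralogs' changes was not tested. With acid BAT2 fell in NBRC 0224 (−1.03 ± 0.22, adjusted p = 0.017), a call that ended without either array of NBRC 0224 at 0% AcOH (adjusted p of 0.083 to 0.17) and with no trend or only the 4 arrays compared, and its value in NFRI 3145 was 0.01 ± 0.22.

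In the leucine branch, the isomerase gene LEU1 was lower in NFRI 3145 and the dehydrogenase gene LEU2, which acts next, was higher. LEU1 read 193 and 218 at 0.6% AcOH and 120 and 99.1 at 0% AcOH in NFRI 3145, against 751 and 856 at 0.6% AcOH and 908 and 1016 at 0% AcOH in NBRC 0224. LEU2 read 3761 and 3882 at 0.6% AcOH and 3177 and 3094 at 0% AcOH in NFRI 3145, against 1690 and 803 at 0.6% AcOH and 1820 and 1504 at 0% AcOH in NBRC 0224. The strains do not overlap for either gene, and the order of the strains is opposite. The strain difference of LEU1 was −3.14 ± 0.23 at 0% and −1.97 ± 0.23 at 0.6% AcOH (adjusted p of 8.7e-07 and 3.5e-05). That of LEU2 was 0.92 ± 0.28 and 1.71 ± 0.28 (adjusted p of 0.018 and 4.9e-04), and the first of these calls ended without either array of NBRC 0224 at 0% AcOH or either array of NFRI 3145 at 0% AcOH (adjusted p of 0.051 to 0.13) and with no trend. LEU1 rose with acid in NFRI 3145 (0.91 ± 0.23, adjusted p = 0.023), a call that ended without replicate 2 of NFRI 3145 at 0% AcOH or either array of NFRI 3145 at 0.6% AcOH (adjusted p of 0.08 to 0.15), and gave −0.26 ± 0.23 in NBRC 0224. LEU4 and LEU9 encode the isopropylmalate synthases that open the branch. LEU4 read 20835 and 18948 at 0.6% AcOH and 20506 and 19432 at 0% AcOH in NFRI 3145, against 14766 and 18935 at 0.6% AcOH and 14323 and 13920 at 0% AcOH in NBRC 0224. It was higher in NFRI 3145 at 0% AcOH by 0.50 ± 0.13 (adjusted p = 0.0077), a call that ended without replicate 2 of NBRC 0224 at 0% AcOH or replicate 1 of NFRI 3145 at 0% AcOH (adjusted p of 0.06 to 0.061) and with no trend. LEU9 read 5489 and 5591 at 0.6% AcOH and 6720 and 7291 at 0% AcOH in NFRI 3145, against 5953 and 8988 at 0.6% AcOH and 5693 and 6393 at 0% AcOH in NBRC 0224. It was not called in any comparison, with strain differences of 0.21 ± 0.18 and −0.40 ± 0.18 at 0% and 0.6% AcOH. The fitted response to acid was −0.34 for LEU9 and −0.01 for LEU4 in NFRI 3145, and 0.28 and 0.24 in NBRC 0224.

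**Figure D2:**
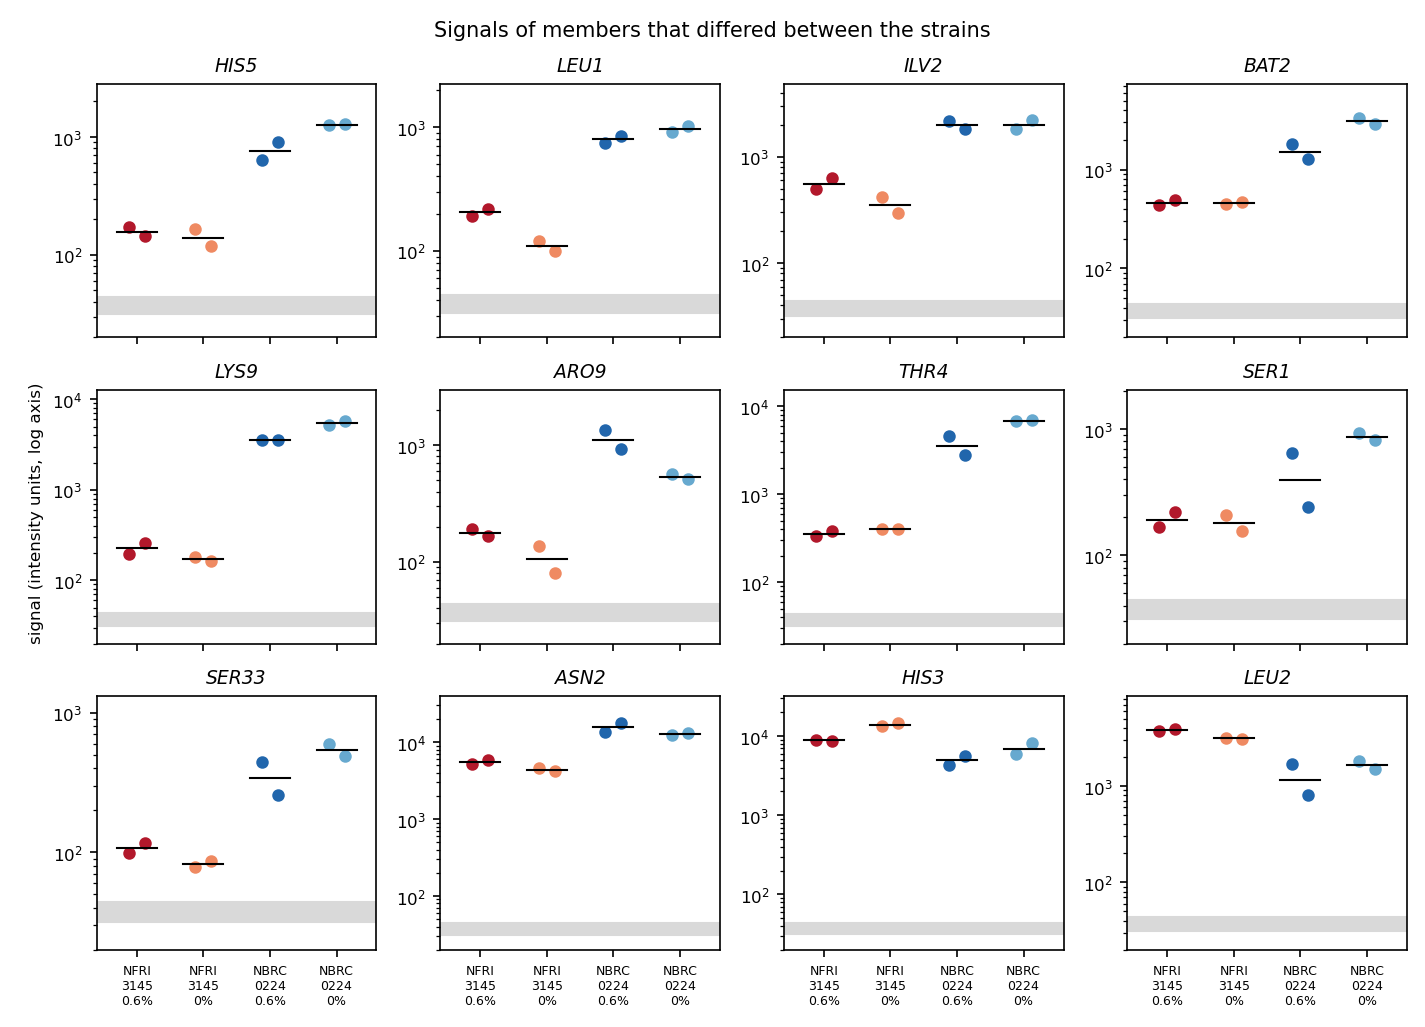
Signal on each array (points, log axis, intensity units) and geometric mean of each group (line) for 12 members that differed between the strains, in NFRI 3145 at 0.6% and 0% AcOH (dark and light red) and NBRC 0224 at 0.6% and 0% AcOH (dark and light blue); the grey band is the range of background, 31.5 to 43.9 units. The first 10 panels show genes lower in NFRI 3145, where LYS9 read 164 to 257 units against 3509 to 5741 in NBRC 0224, and HIS3 and LEU2 are higher in NFRI 3145.

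In lysine synthesis, which held the member with the largest fitted strain difference, 5 of 7 genes were lower and none higher in NFRI 3145, at 0% and at 0.6% AcOH, and these 5 stayed called whichever array was left out. LYS9, which forms saccharopine, read 197 and 257 at 0.6% AcOH and 181 and 164 at 0% AcOH in NFRI 3145, against 3509 and 3571 at 0.6% AcOH and 5199 and 5741 at 0% AcOH in NBRC 0224. Every array of NFRI 3145 was above background and below all 4 of NBRC 0224. The strain difference was −4.99 ± 0.21 at 0% AcOH (adjusted p = 2.1e-08) and −3.98 ± 0.21 at 0.6% AcOH (adjusted p = 1.4e-07), or 31.7-fold and 15.8-fold lower.

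The reductase gene LYS2, one step before LYS9, read 400 and 435 at 0.6% AcOH and 337 and 395 at 0% AcOH in NFRI 3145, against 1168 and 800 at 0.6% AcOH and 1378 and 1432 at 0% AcOH in NBRC 0224. LYS1, which releases lysine from saccharopine, read 575 and 655 at 0.6% AcOH and 398 and 338 at 0% AcOH in NFRI 3145, against 1565 and 1353 at 0.6% AcOH and 1323 and 1398 at 0% AcOH in NBRC 0224. Both separate the strains without overlap. At 0% AcOH the strain difference was −1.94 ± 0.23 for LYS2 and −1.89 ± 0.21 for LYS1, and at 0.6% AcOH −1.21 ± 0.23 and −1.25 ± 0.21. The adjusted p-values lay between 1.9e-05 and 0.0014. LYS4 and LYS12, the homoaconitase and homoisocitrate dehydrogenase genes of the mitochondrial steps, were not called in any comparison. Their strain differences were 0.06 ± 0.17 and −0.11 ± 0.17 for LYS4, and −0.14 ± 0.27 and 0.46 ± 0.27 for LYS12, at 0% and 0.6% AcOH.

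LYS20 and LYS21 encode the homocitrate synthases of the entry step. LYS20 read 1503 and 1611 at 0.6% AcOH and 640 and 745 at 0% AcOH in NFRI 3145, against 2910 and 4050 at 0.6% AcOH and 1458 and 1887 at 0% AcOH in NBRC 0224. LYS21 read 78.5 and 118 at 0.6% AcOH and 166 and 237 at 0% AcOH in NFRI 3145, against 353 and 453 at 0.6% AcOH and 428 and 490 at 0% AcOH in NBRC 0224. LYS20 rose in both strains, while both acid arrays of LYS21 in NFRI 3145 lie below those without acid. The rise of LYS20 was 1.17 ± 0.22 in NFRI 3145 (adjusted p = 0.0055) and 1.05 ± 0.22 in NBRC 0224 (adjusted p = 0.015). In NFRI 3145 it was the only member response that stayed called in every alternative. In NBRC 0224 the call ended without replicate 1 of NBRC 0224 at 0% AcOH (adjusted p = 0.17) and with no trend or only the 4 arrays compared. LYS21 fell in NFRI 3145 (−1.04 ± 0.29, adjusted p = 0.033), a call that ended without either array of NBRC 0224 at 0% AcOH, replicate 2 of NFRI 3145 at 0% AcOH or replicate 1 of NFRI 3145 at 0.6% AcOH (adjusted p of 0.065 to 0.24) and with quantile normalization, median centring or no trend. It gave −0.20 ± 0.29 in NBRC 0224, and the difference between the paralogs was not tested. Both genes were lower in NFRI 3145 than in NBRC 0224. The strain difference of LYS20 was −1.27 ± 0.22 at 0% and −1.14 ± 0.22 at 0.6% AcOH, and that of LYS21 −1.21 ± 0.29 and −2.05 ± 0.29 (adjusted p of 5.5e-04, 0.0013, 0.0044 and 1.4e-04), and LYS21 at 0% AcOH was not called with quantile normalization. LYS1 also rose with acid in NFRI 3145 (0.74 ± 0.21, adjusted p = 0.034), a call that ended without any array other than the arrays of NBRC 0224 at 0.6% AcOH (adjusted p of 0.062 to 0.21) and with no trend.

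In aromatic synthesis, 4 of 11 tested genes were lower and 2 higher in NFRI 3145 at each acid level. These are 54.5% of the genes at each level, near the 50.2% and 46.1% of all tested genes called at 0% and 0.6% AcOH. ARO9, an aromatic aminotransferase known mainly for breaking down aromatic amino acids, read 190 and 166 at 0.6% AcOH and 138 and 80.9 at 0% AcOH in NFRI 3145, against 1342 and 928 at 0.6% AcOH and 565 and 511 at 0% AcOH in NBRC 0224. It was 5.09-fold lower in NFRI 3145 at 0% AcOH (−2.35 ± 0.29, adjusted p = 5.4e-05) and 6.29-fold at 0.6% AcOH (−2.65 ± 0.29, adjusted p = 2.7e-05). With acid its signals were higher on both acid arrays of each strain. The rise in NBRC 0224 was 1.06 ± 0.29 (adjusted p = 0.049), a call that ended without any array other than the arrays of NFRI 3145 at 0% AcOH and replicate 2 of NBRC 0224 at 0.6% AcOH (adjusted p of 0.078 to 0.25) and with no filter, no trend or only the 4 arrays compared, and NFRI 3145 gave 0.75 ± 0.29 (adjusted p = 0.12), not called. Its paralog ARO8, the main biosynthetic aminotransferase, read 10976 and 11392 at 0.6% AcOH and 11259 and 10621 at 0% AcOH in NFRI 3145, against 14401 and 15454 at 0.6% AcOH and 14315 and 14265 at 0% AcOH in NBRC 0224. ARO8 was lower in NFRI 3145 in the deposited scaling, with strain differences of −0.39 ± 0.11 and −0.42 ± 0.11 at 0% and 0.6% AcOH (adjusted p of 0.014 and 0.011), which turned to 0.03 and 0.07 under median centring. The first call ended without either array of NBRC 0224 at 0% AcOH or replicate 2 of NFRI 3145 at 0% AcOH (adjusted p of 0.072 to 0.11) and with median centring or no trend. The second ended without replicate 1 of NFRI 3145 at 0.6% AcOH (adjusted p = 0.078) and with median centring, no trend or only the 4 arrays compared.

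In the tryptophan branch, TRP3, which carries indole-glycerol-phosphate synthase activity, read 103 and 138 at 0.6% AcOH and 148 and 161 at 0% AcOH in NFRI 3145, against 369 and 298 at 0.6% AcOH and 495 and 620 at 0% AcOH in NBRC 0224. TRP2, the anthranilate synthase gene, read 310 and 364 at 0.6% AcOH and 244 and 201 at 0% AcOH in NFRI 3145, against 571 and 451 at 0.6% AcOH and 449 and 532 at 0% AcOH in NBRC 0224. Both are lower on each array of NFRI 3145 than on any of NBRC 0224. The strain difference of TRP3 was −1.84 ± 0.25 at 0% and −1.47 ± 0.25 at 0.6% AcOH (adjusted p of 1.1e-04 and 6.5e-04). TRP2 was called at 0% AcOH (−1.14 ± 0.24, adjusted p = 0.002) and gave −0.60 ± 0.24 at 0.6% AcOH (adjusted p = 0.06). TRP5, the tryptophan synthase gene, read 18856 and 17423 at 0.6% AcOH and 20564 and 19943 at 0% AcOH in NFRI 3145, against 13273 and 16523 at 0.6% AcOH and 16377 and 15970 at 0% AcOH in NBRC 0224. It was higher in NFRI 3145 at 0% AcOH by 0.32 ± 0.12 (adjusted p = 0.047), a call that ended without any array other than the arrays of NBRC 0224 at 0.6% AcOH (adjusted p of 0.07 to 0.18) and with quantile normalization, no filter or no trend. TRP4, the phosphoribosyltransferase gene, was not called in any comparison.

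Of the genes before the branch point, ARO1, the pentafunctional enzyme of the shikimate steps, read 14819 and 13401 at 0.6% AcOH and 11811 and 12557 at 0% AcOH in NFRI 3145, against 7648 and 9576 at 0.6% AcOH and 8910 and 8620 at 0% AcOH in NBRC 0224. It was higher in NFRI 3145 by 0.47 ± 0.14 at 0% and 0.72 ± 0.14 at 0.6% AcOH (adjusted p of 0.013 and 0.0013), and the first of these calls ended without either array of NBRC 0224 at 0% AcOH or replicate 2 of NFRI 3145 at 0% AcOH (adjusted p of 0.061 to 0.094) and with no trend. The entry step has 2 synthase genes, the phenylalanine-sensitive ARO3 and the tyrosine-sensitive ARO4. ARO4 read 7398 and 7852 at 0.6% AcOH and 6567 and 6110 at 0% AcOH in NFRI 3145, against 5904 and 5408 at 0.6% AcOH and 6367 and 6695 at 0% AcOH in NBRC 0224, and was higher in NFRI 3145 at 0.6% AcOH by 0.43 ± 0.13 (adjusted p = 0.021), a call that ended without either array of NFRI 3145 at 0.6% AcOH (adjusted p of 0.077 to 0.14) and with no trend or only the 4 arrays compared. ARO3 read 31.4 and 60.8 at 0.6% AcOH and 42 and 72.6 at 0% AcOH in NFRI 3145, against 102 and 89.7 at 0.6% AcOH and 117 and 96.8 at 0% AcOH in NBRC 0224. With 1 array below background, ARO3 was at least 1.85-fold lower in NFRI 3145 at 0.6% AcOH (adjusted p = 0.037). This call ended without any array other than replicate 2 of NFRI 3145 at 0.6% AcOH and the arrays of NFRI 3145 at 0% AcOH (adjusted p of 0.061 to 0.26) and with quantile normalization, median centring, no filter, no trend or only the 4 arrays compared, and the fitted value of −1.13 became −0.65 without replicate 1 of NFRI 3145 at 0.6% AcOH. ARO2, the chorismate synthase gene, and ARO7, the chorismate mutase gene near background, were not called in any comparison.

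In threonine synthesis, 4 of 5 genes were lower in NFRI 3145 at 0% AcOH and 3 of 5 at 0.6% AcOH, with none higher. These are 80.0% and 60.0% of the genes, where 29.1% and 28.7% of all tested genes were called lower. THR4, the threonine synthase gene of the last step, read 333 and 378 at 0.6% AcOH and 406 and 399 at 0% AcOH in NFRI 3145, against 4545 and 2826 at 0.6% AcOH and 6790 and 6946 at 0% AcOH in NBRC 0224. It was 17.1-fold lower in NFRI 3145 at 0% AcOH (−4.09 ± 0.23, adjusted p = 1.8e-07) and 10.1-fold at 0.6% AcOH (−3.34 ± 0.23, adjusted p = 1.1e-06). In NBRC 0224 THR4 fell with acid (−0.94 ± 0.23, adjusted p = 0.031), a call that ended without any array other than the arrays of NFRI 3145 at 0% AcOH and replicate 1 of NBRC 0224 at 0.6% AcOH (adjusted p of 0.056 to 0.19) and with no trend or only the 4 arrays compared. The value was −0.60 without replicate 2 of NBRC 0224 at 0.6% AcOH. NFRI 3145 gave −0.18 ± 0.23.

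HOM3, the aspartate kinase gene that opens the pathway, read 5068 and 4698 at 0.6% AcOH and 4578 and 2300 at 0% AcOH in NFRI 3145, against 10783 and 10193 at 0.6% AcOH and 10890 and 11400 at 0% AcOH in NBRC 0224. HOM6, the homoserine dehydrogenase gene, read 13367 and 13177 at 0.6% AcOH and 12900 and 11299 at 0% AcOH in NFRI 3145, against 20186 and 21965 at 0.6% AcOH and 19801 and 19553 at 0% AcOH in NBRC 0224. HOM2, the aspartate semialdehyde dehydrogenase gene, read 6472 and 6794 at 0.6% AcOH and 6208 and 6450 at 0% AcOH in NFRI 3145, against 10397 and 6107 at 0.6% AcOH and 10558 and 10148 at 0% AcOH in NBRC 0224. The strains overlap only for HOM2, through its acid arrays. At 0% AcOH the strain differences were −1.78 ± 0.25 for HOM3, −0.70 ± 0.11 for HOM6 and −0.71 ± 0.20 for HOM2 (adjusted p of 1.2e-04, 3.3e-04 and 0.013). At 0.6% AcOH they were −1.10 ± 0.25, −0.67 ± 0.11 and −0.26 ± 0.20 (adjusted p of 0.0036, 6.0e-04 and 0.32), so that HOM2 was called only without acid. The call of HOM2 ended without either array of NBRC 0224 at 0% AcOH or either array of NFRI 3145 at 0% AcOH (adjusted p of 0.051 to 0.084) and with median centring or no trend. Under median centring the calls of HOM6 at both acid levels and of HOM3 at 0.6% AcOH ended as well. THR1, the homoserine kinase gene, read 24273 to 27929 units in NFRI 3145 and 21789 to 28876 in NBRC 0224 and was not called in any comparison.

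In serine synthesis, the dehydrogenase genes SER3 and SER33 and the aminotransferase gene SER1 were called lower in NFRI 3145 at both acid levels. These are 3 of the 4 genes, where 29.1% and 28.7% of all tested genes were called lower at 0% and 0.6% AcOH. At 0.6% AcOH the calls of SER3, which lay near or below background, and of SER1 depended on the processing. The phosphatase gene SER2 was not called at 0% AcOH. SER33 read 98.8 and 117 at 0.6% AcOH and 78.9 and 85.9 at 0% AcOH in NFRI 3145, against 445 and 258 at 0.6% AcOH and 596 and 487 at 0% AcOH in NBRC 0224. SER1 read 167 and 221 at 0.6% AcOH and 209 and 156 at 0% AcOH in NFRI 3145, against 641 and 240 at 0.6% AcOH and 925 and 822 at 0% AcOH in NBRC 0224. SER3 read 13.8 and 6.08 at 0.6% AcOH and 25.2 and 21.6 at 0% AcOH in NFRI 3145, against 46.7 and 39.4 at 0.6% AcOH and 426 and 251 at 0% AcOH in NBRC 0224. For SER33 the strains do not overlap, and the strain difference was −2.71 ± 0.29 at 0% and −1.66 ± 0.29 at 0.6% AcOH (adjusted p of 1.7e-05 and 7.2e-04).

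For SER1, replicate 2 of NBRC 0224 at 0.6% AcOH lies close to the arrays of NFRI 3145. The strain difference of SER1 was −2.27 ± 0.39 at 0% AcOH (adjusted p = 4.9e-04) and −1.03 ± 0.39 at 0.6% AcOH (adjusted p = 0.047). The second call ended without any array other than replicate 2 of NBRC 0224 at 0.6% AcOH (adjusted p of 0.054 to 0.39) and with quantile normalization, median centring, no filter, no trend or only the 4 arrays compared, with values of −0.32 and −1.74 without replicates 1 and 2 of NBRC 0224 at 0.6% AcOH. SER3 exceeded background on arrays of NBRC 0224 alone, 2 at 0% AcOH and 1 at 0.6% AcOH, and was tested through them. This favours a call of lower in NFRI 3145 and a call of a fall with acid in NBRC 0224. All 4 arrays of NFRI 3145 were below background, so that SER3 was at least 8.05-fold lower in NFRI 3145 at 0% AcOH (adjusted p = 6.9e-05) and at least 1.03-fold lower at 0.6% AcOH (adjusted p = 0.0033). The second of these ended with signals raised to background. SER3 fell with acid in NBRC 0224 by at least 7.22-fold, with 1 acid array below background (adjusted p = 0.0047), and this call ended without replicate 1 of NBRC 0224 at 0% AcOH (adjusted p = 0.12).

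SER2 read 48.7 and 65.5 at 0.6% AcOH and 40.9 and 70.6 at 0% AcOH in NFRI 3145, against 18.2 and 14.8 at 0.6% AcOH and 59.4 and 44.3 at 0% AcOH in NBRC 0224. Its acid arrays in NBRC 0224 were both below background, and the other groups lay near it. SER2 was at least 1.51-fold higher in NFRI 3145 than in NBRC 0224 at 0.6% AcOH (adjusted p = 0.0075), a call that ended without replicate 2 of NFRI 3145 at 0.6% AcOH (adjusted p = 0.051) and with raised signals. It fell with acid in NBRC 0224 by at least 1.37-fold (adjusted p = 0.048), a call that ended without any array other than replicate 1 of NBRC 0224 at 0.6% AcOH (adjusted p of 0.052 to 0.29) and with quantile normalization, median centring, no filter, raised signals, no trend or only the 4 arrays compared. Of the serine genes above background on all 8 arrays, the difference of the responses was 1.24 ± 0.55 for SER1 and 1.05 ± 0.41 for SER33, and neither was called (adjusted p of 0.27 and 0.23). SER2 and SER3 had arrays below background on a side of that comparison, so no size is given for them.

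Of the asparagine synthetase genes ASN1 and ASN2, ASN2 was lower in NFRI 3145 at both acid levels. It read 5209 and 5912 at 0.6% AcOH and 4561 and 4181 at 0% AcOH in NFRI 3145, against 13491 and 17927 at 0.6% AcOH and 12418 and 13079 at 0% AcOH in NBRC 0224. It was 2.92-fold lower in NFRI 3145 at 0% AcOH (−1.55 ± 0.16, adjusted p = 1.1e-05) and 2.8-fold at 0.6% AcOH (−1.49 ± 0.16, adjusted p = 1.9e-05). ASN1 read 373 and 495 at 0.6% AcOH and 274 and 539 at 0% AcOH in NFRI 3145, against 375 and 237 at 0.6% AcOH and 487 and 360 at 0% AcOH in NBRC 0224. Its arrays overlap between all groups, and it was not called, with strain differences of −0.12 ± 0.35 and 0.53 ± 0.35. The difference between the paralogs was not tested.

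In proline synthesis, the kinase gene PRO1 stayed near background. It read 17.6 and 22.4 at 0.6% AcOH and 25.1 and 0.916 at 0% AcOH in NFRI 3145, against 36.7 and 82.8 at 0.6% AcOH and 54 and 46.9 at 0% AcOH in NBRC 0224. PRO1 exceeded background on arrays of NBRC 0224 alone and was tested through them, which favours a call of lower in NFRI 3145. Both arrays of NFRI 3145 at 0% AcOH were below background, so that PRO1 was at least 1.24-fold lower there (adjusted p = 0.035). The call ended without either array of NBRC 0224 at 0% AcOH, replicate 2 of NBRC 0224 at 0.6% AcOH or replicate 2 of NFRI 3145 at 0% AcOH (adjusted p of 0.05 to 0.24) and with quantile normalization, raised signals, no trend or only the 4 arrays compared, with fitted values of −5.78 and −1.0 without replicates 1 and 2 of NFRI 3145 at 0% AcOH, against −3.39 with all arrays. PRO2, the reductase gene that acts next, read 725 and 807 at 0.6% AcOH and 573 and 487 at 0% AcOH in NFRI 3145, against 583 and 497 at 0.6% AcOH and 701 and 861 at 0% AcOH in NBRC 0224. It was not called, and its difference of the responses was 1.06 ± 0.31 (adjusted p = 0.13). PRO3, the reductase gene of the last step, read 13455 to 15730 units in NFRI 3145 and 13235 to 17927 in NBRC 0224 and was not called in any comparison.

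Responses to acid were called for 13.7% of members in NFRI 3145 and 15.7% in NBRC 0224, where 13.5% and 8.4% of all tested genes were called. In NFRI 3145, 4 of 51 members (HIS4, LEU1, LYS1 and LYS20) rose and 3 (HIS3, ILV5 and LYS21) fell, or 7.84% and 5.88%, where 3.82% and 9.67% of all tested genes did (13.5% in either direction). In NBRC 0224, 2 (LYS20 and ARO9) rose and 6 (GCN4, ILV5, BAT2, THR4, SER2 and SER3) fell, or 3.92% and 11.8%, where 3.61% and 4.8% of all tested genes did (8.4% in either direction). Of the 6, SER3 passed the filter on arrays of NBRC 0224 alone, which favours a call of a fall. The 2 responses come from separate arrays, and LYS20 was called higher and ILV5 lower in both. These are 25.0% of the 4 and 33.3% of the 3 calls in NFRI 3145, and 50.0% of the 2 and 16.7% of the 6 in NBRC 0224, where the shared calls over all tested genes were 28.4% and 27.2%, and 30.0% and 54.8%. Of the 15 called responses, only that of LYS20 in NFRI 3145 was called in all 8 fits without 1 array. Wherever leaving out 1 array changed a member count in either response, the share of all tested genes called changed in the same direction. Whether the member counts changed more than those of all tested genes was not tested. In NFRI 3145 the counts were 8 higher and 1 lower under median centring, where 8.64% and 7.35% of all tested genes were called. They were 1 higher without either array of NFRI 3145 at 0.6% AcOH or replicate 2 of NFRI 3145 at 0% AcOH, and 2 without either array of NBRC 0224 at 0% AcOH. The 3 lower became 0 without replicate 2 of NFRI 3145 at 0% AcOH, and 1 without any other array of NFRI 3145 or either array of NBRC 0224 at 0% AcOH. Without either acid array of NBRC 0224, 5 were lower. In NBRC 0224 they were 7 higher and 15 lower without replicate 1 of NBRC 0224 at 0.6% AcOH, where 8.35% and 10.9% of all tested genes were called. The 6 lower became 0 and 1 without replicates 1 and 2 of NBRC 0224 at 0% AcOH, 2 without either array of NFRI 3145 at 0.6% AcOH, and 3 without replicate 2 of NBRC 0224 at 0.6% AcOH or either array of NFRI 3145 at 0% AcOH. The 2 higher became 0 without replicate 1 of NBRC 0224 at 0% AcOH, and 1 without replicate 2 of NBRC 0224 at 0% AcOH or either array of NFRI 3145 at 0.6% AcOH.

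**Figure D3:**
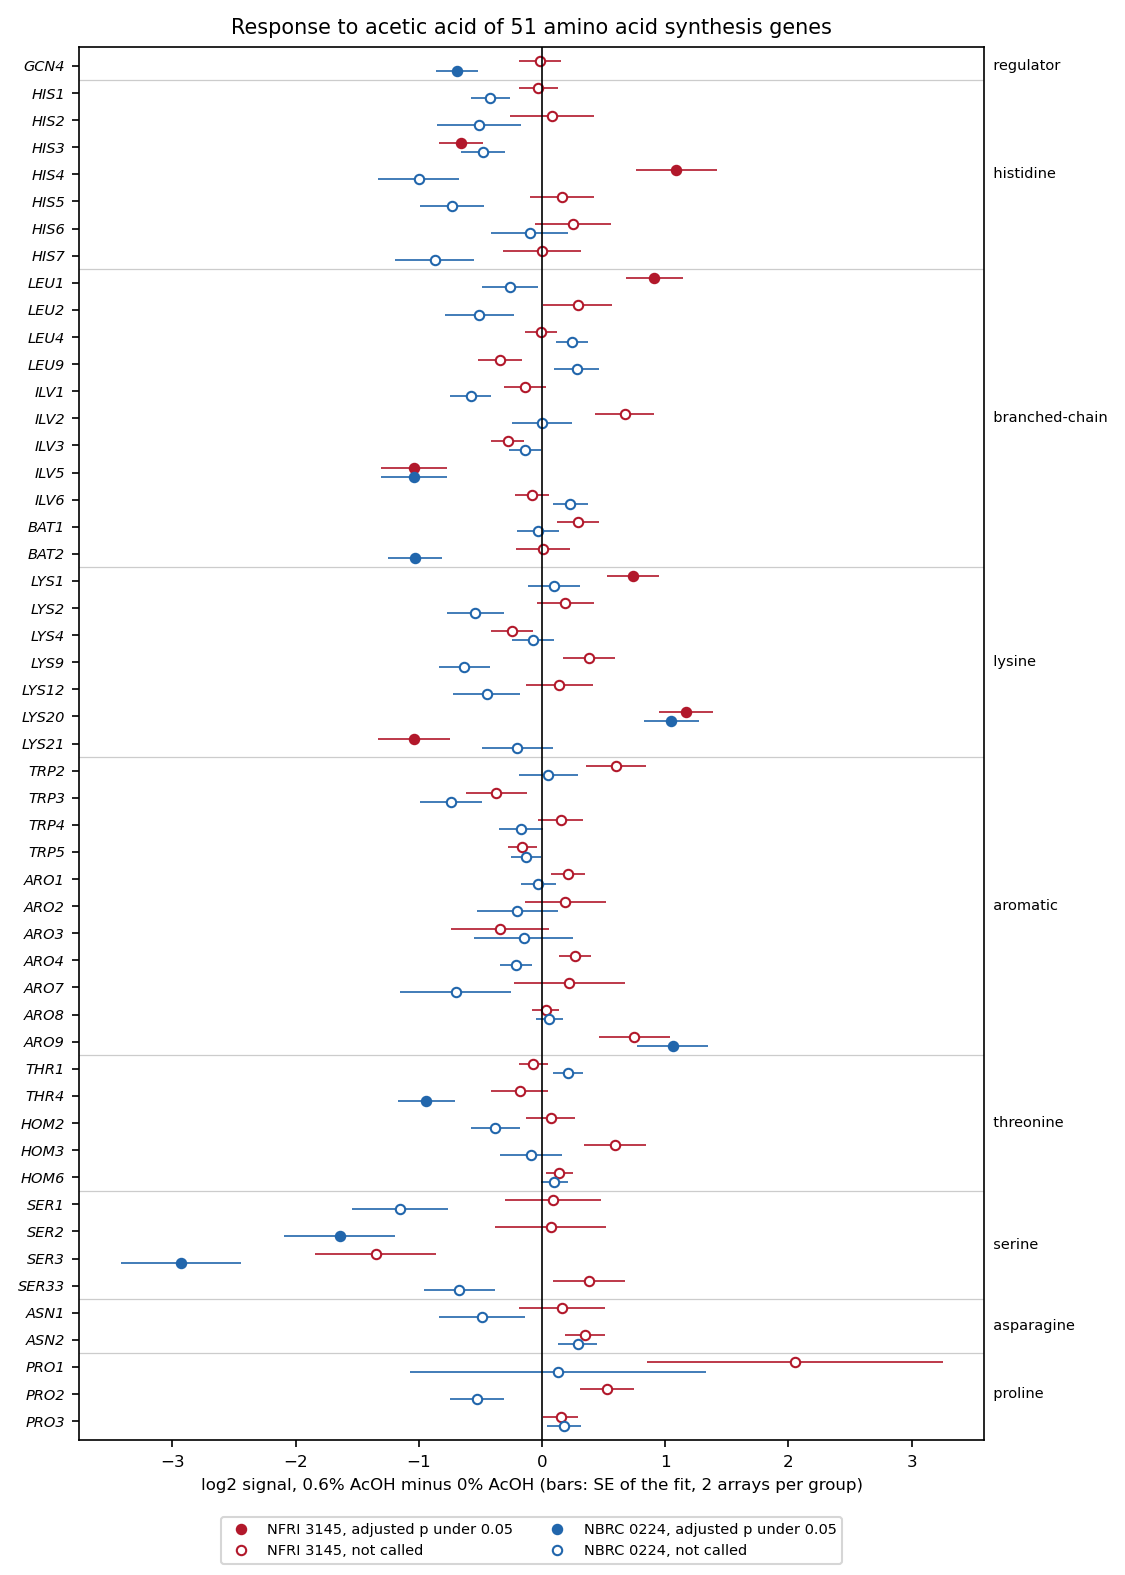
Log2 response to acid (0.6% minus 0% AcOH, horizontal axis) of the 51 members by pathway in NFRI 3145 (red) and NBRC 0224 (blue); bars are the SE of the fit, filled points are called at an adjusted p under 0.05 and open points are not. LYS20 at 1.17 and 1.05 and ILV5 at −1.04 and −1.04 are filled in both strains, and most blue points lie left of the red points of the same gene.

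**Figure D4:**
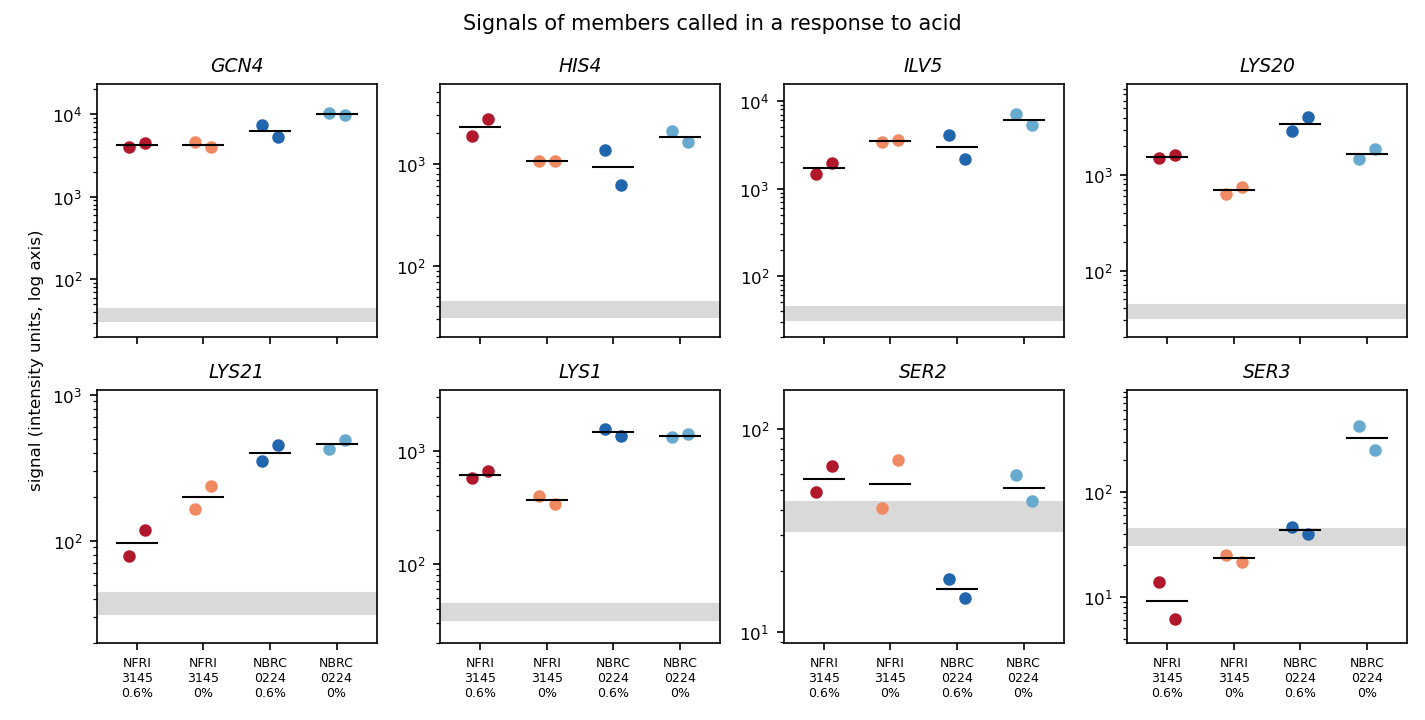
Signal on each array (points, log axis, intensity units) and geometric mean of each group (line) for 8 members called in a response to acid, in NFRI 3145 at 0.6% and 0% AcOH (dark and light red) and NBRC 0224 at 0.6% and 0% AcOH (dark and light blue); the grey band is the range of background, 31.5 to 43.9 units. LYS20 is higher and ILV5 lower on both acid arrays of each strain, and all NFRI 3145 arrays of SER3 lie below the band.

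Across the whole set, the fitted response was positive for 33 of 51 members (64.7%) in NFRI 3145 and for 14 of 51 (27.5%) in NBRC 0224, where it was positive for 43.6% and 41.7% of all tested genes. In NBRC 0224 all 7 histidine genes and all 4 serine genes had negative fitted responses, as 58.3% of all tested genes did. None of the 7 histidine genes and 2 of the 4 serine genes (SER2 and SER3) were called, and 5 and 4 had an unadjusted p under 0.05, where 14.1% of all tested genes had one with a negative response. SER3 passed the filter on arrays of NBRC 0224 alone, which favours a call of a fall. The median of the histidine genes was 0.08 in NFRI 3145 and −0.51 in NBRC 0224. Of the serine genes above background on all arrays, SER1 gave 0.09 ± 0.39 in NFRI 3145 and −1.15 ± 0.39 in NBRC 0224, and SER33 gave 0.38 ± 0.29 and −0.67 ± 0.29, and none of these 4 values was called. The median response was 0.14 in NFRI 3145 and −0.21 in NBRC 0224, where the medians of all tested genes were −0.07 and −0.11. Median centring moved the medians of all tested genes to 0.16 and 0.05, and relative to them the members stood at 0.21 in NFRI 3145 and −0.10 in NBRC 0224 in either scaling, and at 0.14 and −0.18 with quantile normalization. These values were 0.12 in NFRI 3145 without replicate 2 of NFRI 3145 at 0.6% AcOH, and −0.16 in NBRC 0224 without replicate 2 of NBRC 0224 at 0.6% AcOH and −0.15 without replicate 1 of NBRC 0224 at 0.6% AcOH or replicate 1 of NBRC 0224 at 0% AcOH. Without an array of NFRI 3145 the median there lay between 0.03 (without replicate 2 of NFRI 3145 at 0.6% AcOH) and 0.21 (without replicate 1 of NFRI 3145 at 0.6% AcOH). It was 0.08 without either array of NFRI 3145 at 0% AcOH.

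Subtracting the response of NBRC 0224 from that of NFRI 3145 gave a positive value for 37 of 51 members (72.5%), where it was positive for 48.5% of all tested genes, with a median of 0.45 for the members and −0.03 for all tested genes. None of the 51 was called by limma, where 0.851% of all tested genes were. At an unadjusted p under 0.05 there were 16 (31.4%), of which 15 (29.4%) were positive, where 17.3% of all tested genes were under 0.05 and 7.61% were under it and positive. Among the 15, SER2 and SER3 rest on arrays below background. The counts depended on 1 array. Without replicate 1 of NBRC 0224 at 0.6% AcOH, 10 members were called higher and 2 lower, and the median was 0.65, while 4.33% of all tested genes were called higher and 4.33% lower (8.66% in either direction). These 12 were HIS4, GCN4, LEU2, ILV1, BAT2, THR4, HOM2, SER1, SER33 and PRO2, which were higher, and LEU9 and ILV6, which were lower. Without replicate 1 of NFRI 3145 at 0% AcOH, HOM3 alone was called, and without any other array none was. Within NBRC 0224 at 0.6% AcOH, 30 of 51 members read lower on replicate 2 than on replicate 1, with a median of −0.21 (−0.03 for all tested genes), and HIS4, LEU2, ARO2, SER1 and PRO1 were more than 2-fold apart.

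**Figure D5:**
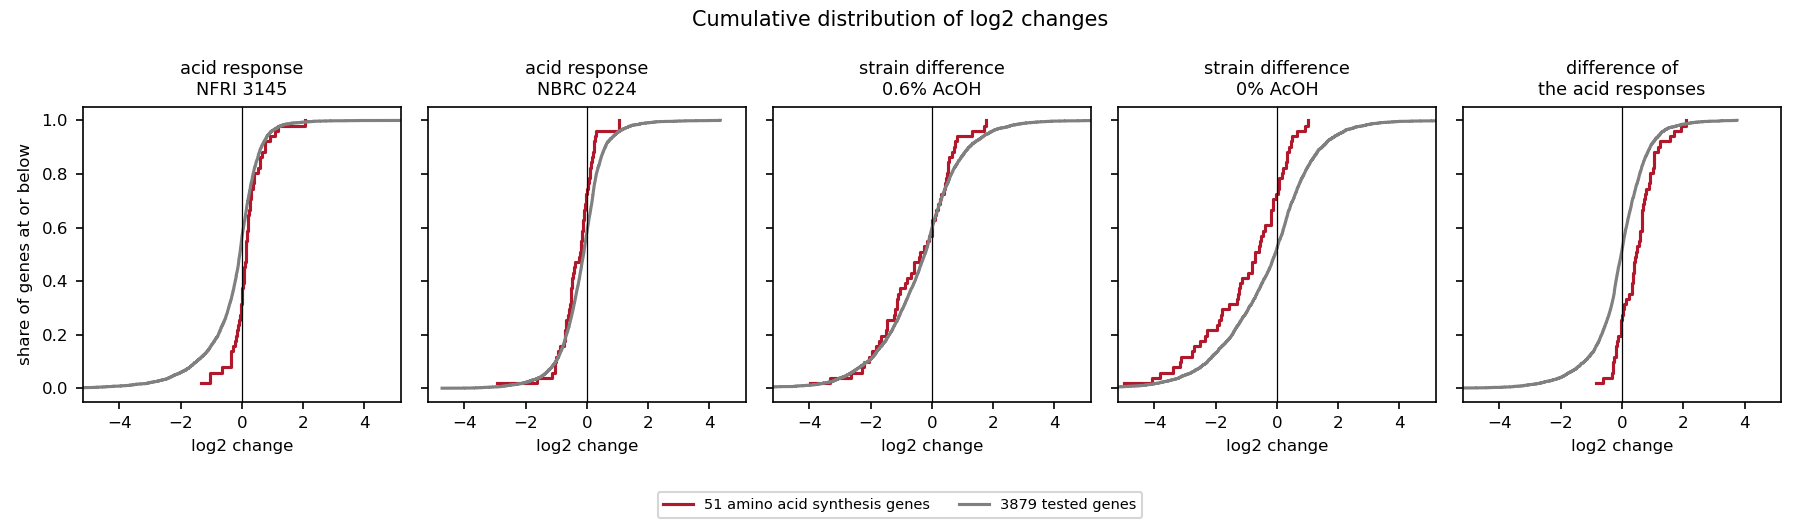
Cumulative share (vertical axis) of the 51 members (red) and of the 3879 tested genes (grey) at or below each log2 change (horizontal axis), for the response to acid in NFRI 3145 and NBRC 0224, the strain difference at 0.6% and 0% AcOH, and the difference of the responses; the horizontal axis leaves out the outermost tails of all tested genes. Over most of its length the red curve lies left of the grey one in the strain difference at 0% AcOH (medians of −0.70 and −0.06) and right of it in the difference of the responses (medians of 0.45 and −0.03).

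The 7 genes with a mean signal over 10000 in all 4 groups (LEU4, ILV6, TRP5, ARO8, THR1, HOM6 and PRO3) had strain differences of −0.70 to 0.50 at 0% AcOH and −0.67 to 0.29 at 0.6% AcOH. The 36 genes at or under 10000 in all 4 groups had strain differences of −4.99 to 0.92 and −3.98 to 1.78. The 15 genes over 10000 in at least 1 group, which include the 7, had strain differences of −1.78 to 1.01 and −1.49 to 0.83. Requiring a mean over 10000 in all 4 groups itself limits how far the groups can differ. The narrower range of the 7 therefore does not bear on compression. The cut-off of 10000 was set here, and whether signals above it are compressed was not tested.

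Among regulators that are not members, 9 of 16 listed genes were tested. At 0% AcOH, 4 were lower in NFRI 3145 and 1 higher, and at 0.6% AcOH 4 were lower and 2 higher. These are 55.6% and 66.7% of the 9, where 50.2% and 46.1% of all tested genes were called. Not every call of this list at 0.6% AcOH is given here. None was called in either response to acid, where 13.5% and 8.4% of all tested genes were in NFRI 3145 and NBRC 0224. GCD1, a subunit gene of the exchange factor of eIF2, averaged 73.7 units in NFRI 3145 and 575 in NBRC 0224 at 0% AcOH (−2.96 ± 0.24, adjusted p = 2.2e-06). At 0.6% AcOH it averaged 64.5 in NFRI 3145 and 486 in NBRC 0224 (−2.91 ± 0.24, adjusted p = 3.6e-06). GCN3, GCD7 and GCD11, for other subunits of that factor and of eIF2, were lower in NFRI 3145, with strain differences of −1.18 ± 0.20, −1.85 ± 0.37 and −1.40 ± 0.27 at 0% AcOH (adjusted p of 5.1e-04, 0.0015 and 0.0013). GCN1 averaged 5163 units in NFRI 3145 and 2955 in NBRC 0224 at 0.6% AcOH. GCN20, an activator of Gcn2, was higher in NFRI 3145 by 1.54 ± 0.17 at 0% AcOH (adjusted p = 2.5e-05) and 0.69 ± 0.17 at 0.6% AcOH (adjusted p = 0.0069). The second call ended without replicate 2 of NFRI 3145 at 0.6% AcOH (adjusted p = 0.06).

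Of 17 tested genes for other enzymes and carriers of these pathways, 5 were higher and 7 lower in NFRI 3145 at 0% AcOH, and 4 and 7 at 0.6% AcOH. These are 70.6% and 64.7% of the 17, where 50.2% and 46.1% of all tested genes were called. With acid, 2 rose and 1 fell in NFRI 3145 (17.6%, against 13.5% of all tested genes). In NBRC 0224, 1 fell (5.88%, against 8.4% called in either direction). Not all called genes of this list are named here. TYR1, the prephenate dehydrogenase gene of tyrosine synthesis, averaged 297 units in NFRI 3145 and 123 in NBRC 0224 at 0% AcOH, and 567 in NFRI 3145 and 96.7 in NBRC 0224 at 0.6% AcOH. It was higher in NFRI 3145 by 1.27 ± 0.25 and 2.55 ± 0.25 (adjusted p of 0.0014 and 1.2e-05). PHA2, of the phenylalanine branch, was called the other way, at least 2.24-fold lower in NFRI 3145 at 0% AcOH (adjusted p = 3.3e-04). Both arrays of NFRI 3145 at 0% AcOH were below background for PHA2. GDH1, the main glutamate synthesis enzyme of growing cells, was higher by 1.80 ± 0.33 and 2.80 ± 0.33 (adjusted p of 7.8e-04 and 3.9e-05). ALT1, an alanine transaminase gene, was lower in NFRI 3145 (−1.49 ± 0.14 and −0.91 ± 0.14, adjusted p of 5.3e-06 and 2.4e-04), at 0.6% AcOH not under median centring.

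The arginine and sulfur pathways, set apart from the members, gave smaller medians at 0% AcOH. Of 8 tested arginine genes, 2 were higher and 2 lower in NFRI 3145 at 0% AcOH (median −0.24), and 3 and 2 at 0.6% AcOH (median 0.61). Of 17 tested sulfur and methionine genes, 1 was higher and 7 lower at 0% AcOH (median −0.18), and 1 and 6 at 0.6% AcOH (median −0.61). The called arginine genes were 50.0% and 62.5%, and the sulfur genes 47.1% and 41.2%, at 0% and 0.6% AcOH. Of all tested genes, 50.2% and 46.1% were called. With acid, none of the arginine genes was called in NFRI 3145 and 2 fell in NBRC 0224 (25.0%). Of the sulfur genes, 3 rose and 2 fell in NFRI 3145 (29.4%) while 2 rose in NBRC 0224 (11.8%). Of all tested genes, 13.5% and 8.4% were called in the responses of NFRI 3145 and NBRC 0224. The difference between these lists and the members was not tested. ARG4, the argininosuccinate lyase gene, was higher in NFRI 3145 by 0.96 ± 0.17 and 1.75 ± 0.17 (adjusted p of 7.3e-04 and 1.1e-05), and CYS4, the cystathionine synthase gene, was lower (−2.75 ± 0.19 and −2.02 ± 0.19, adjusted p of 7.1e-07 and 8.9e-06).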

How the data were processed

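The deposited values are signal intensities per probe set, made by the authors with GCOS per the submitters' processing notes, on a linear scale with no version given. The trimmed means of the arrays, leaving out 2% at each end, were 500.7 to 500.8, so the arrays had been scaled to a common mean. Background of an array was the 95th percentile of its Schizosaccharomyces pombe probe sets. Where a gene had several probe sets the one with the highest mean was kept, and genes above background on at least 2 arrays were tested (3879 of 5449, 1570 left out). The authors' intensities were log2-transformed and fitted here with limma 3.58.1 (R 4.3.3): 4 group means over all 8 arrays, moderated with an intensity trend, with Benjamini-Hochberg adjustment over the 3879 genes for each of 5 comparisons. The fit was tested on simulated data. The 5 comparisons were the response to acid in each strain, the strain difference at each acid level and the difference of the responses.

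Sequencing depth does not apply, and the 2 arrays per group limit the precision. Replicate numbers are not said to pair the arrays, and the replicate differences of 2 groups correlated by −0.05 to 0.05 over genes. These correlations cannot exclude that arrays with the same number share a day or batch. All members were described whatever their values, with the value on every array for those called in any comparison and for paralog pairs, and genes of other lists were named only where called. The members and lists were chosen with earlier results of these data known. The alternatives tried were the scaling, the filter, the treatment of signals below background, the trend, the arrays in the fit, the choice of probe set, a replicate block and leaving out each array. No sequences are shown.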

Additional observations from a re-analysis of the deposited data

Results flagged for a closer look

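Among the genes of the neighbouring pathways, 2 had responses to acid that differed between the strains by the limma test of the difference itself. Of all tested genes, 0.851% were called in this comparison. For ARG1, the argininosuccinate synthase gene of arginine synthesis, the response of NFRI 3145 minus that of NBRC 0224 was 2.51 ± 0.32 (SE, adjusted p = 0.0041), with a response of 0.62 ± 0.23 in NFRI 3145 and −1.89 ± 0.23 in NBRC 0224. It was not called without replicate 1 of NBRC 0224 at 0% AcOH (adjusted p = 0.06) and with no trend. For MET13, a methylenetetrahydrofolate reductase gene, the difference was −1.94 ± 0.32 (adjusted p = 0.016), with responses of −1.08 ± 0.23 in NFRI 3145 and 0.85 ± 0.23 in NBRC 0224. It was not called without any array other than replicate 1 of NFRI 3145 at 0% AcOH and the arrays of NBRC 0224 at 0.6% AcOH (adjusted p of 0.061 to 0.13) and with no trend. None of the 51 members was called in this comparison.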

How the results depend on the processing

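Among 78 called results (members in any comparison), leaving out 1 array at a time gave 624 values, of which 502 kept their call, 122 lost it and 0 turned. The other alternatives gave 695 values, of which 614 kept the call, 79 lost it and 2 turned: ARO8 was 0.03 at 0% AcOH and 0.07 at 0.6% AcOH under median centring. The call was lost in 28 results without the intensity trend, 14 under median centring, 14 with only the 4 arrays compared, 9 with quantile normalization, 8 without a filter, 4 with signals raised to background and 2 with a replicate block.

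Under median centring, 8 members were called higher and 1 lower in the response of NFRI 3145, where 8.64% and 7.35% of all tested genes were. In the strain difference at 0.6% AcOH, 21 were higher and 15 lower (29.9% and 17.8% of all tested genes). In the difference of the responses, 1 was higher (0.49% of all tested genes). The medians under this centring were 0.38 and −0.05 in the responses of NFRI 3145 and NBRC 0224. They were 0.09 and −0.29 in the strain differences at 0.6% and 0% AcOH. Without the trend, 2 were higher and 0 lower in NFRI 3145, where 1.88% and 7.84% of all tested genes were. In NBRC 0224, 0 were higher and 1 lower (0.928% and 1.75% of all tested genes). Between strains at 0% AcOH, 2 were higher (18.5% of all tested genes). With only the 4 arrays compared, 5 were lower in NFRI 3145 (13.4% of all tested genes). In NBRC 0224, 0 were then higher and 1 lower (1.42% and 2.24% of all tested genes). Without a filter, 1 was higher in NBRC 0224 (2.04% of all genes). With signals raised to background the median strain difference was −0.26 at 0.6% AcOH and −0.60 at 0% AcOH, also −0.60 with quantile normalization. With raised signals, 2 members (HIS4 and SER3) were called higher in the difference of the responses, where 1.11% of all tested genes were. For SER3 all 4 arrays of NFRI 3145 then stood at background, which sets that call. Among genes above background on all 8 arrays, HIS4 alone (1) was called higher in the difference of the responses, where 0.686% of such genes were.

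Leaving out 1 array at a time, the members called higher ranged over 1 to 5 in NFRI 3145 and 0 to 7 in NBRC 0224, over 4 to 11 and 2 to 9 between strains at 0.6% and 0% AcOH, and over 0 to 10 in the difference of the responses. Those called lower ranged over 0 to 5, 0 to 15, 18 to 24, 21 to 27 and 0 to 2. The medians ranged over 0.03 to 0.21, −0.29 to −0.21, −0.41 to −0.32, −0.76 to −0.68 and 0.31 to 0.65. The cause of these changes was not tested.

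With the replicate number as a block, 1 member (HIS4, adjusted p = 0.047) was called higher in the difference of the responses, where 0.335% of all tested genes were. SER2 in NBRC 0224 and TRP5 between strains at 0% AcOH lost their calls. The numbers are not said to pair the arrays. With 2 arrays per group and signals near background for SER2, SER3, PRO1, ARO3 and ARO7, small changes could not be resolved.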
